A study of Mus musculus with 8 samples.

Results

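Hlf-positive hematopoietic stem cells (HSCs) of mouse bone marrow were followed over 3 days after a single type of inflammatory signal, interferon alpha (IFNα). The cells were chosen by their own RNA counts. A cell was gated when it carried at least 1 unique molecular identifier (UMI, the tag that marks 1 captured RNA molecule) of Hlf, at least 1 UMI of at least 2 of the 5 markers Mecom, Procr, Fgd5, Slamf1 and Mllt3, and 0 UMIs of Dntt, Flt3 and Gp1bb, which mark lymphoid-primed and megakaryocytic cells. This gate held 1067 of the 10046 cells that passed quality filters, or 10.6%, and the remaining 8979 cells are called the other cells below. Because the gate was set on measured values, the levels of the 9 gate genes are given as a description and were not tested.

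The study sampled wild-type mice of 12 to 14 weeks at 4 time points, with 4 mice in each group. Treated mice were injected under the skin with IFNα diluted in PBS, at 50000 IU for a mouse of 20 g, and were examined after 3, 24 or 72 h. Control mice received 100 µl of PBS alone. Lineage-negative cKit+ (LK) bone marrow cells, to which sorted LK CD150+ CD48- CD34- cells had been added to enrich HSCs, were profiled with the 10x Genomics 3′ single-cell assay, and a hashtag antibody marked the mouse that each cell came from. All groups share the sort, so cells that lost lineage-negative or cKit+ status after treatment were not measured in any of them. The added cells also set the share of HSCs in each library.

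HSCs sit at the top of blood formation and divide rarely. Hlf, a transcription factor of the PAR bZIP family, is expressed in HSCs and is lost as they differentiate, and Mecom, Procr, Fgd5, Slamf1 and Mllt3 are HSC genes that vary in how widely progenitors share them. IFNα binds a receptor of Ifnar1 and Ifnar2. The receptor acts through the kinases Jak1 and Tyk2 on transcription factors, Stat2 and Irf9 among them, which bind interferon-stimulated response elements near interferon-stimulated genes (ISGs), and feedback genes such as Usp18 and Socs1 then dampen the signal. IFNα is known to draw HSCs out of dormancy for a short time and to raise Ly6a, which encodes the surface marker Sca-1.

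The 4 mice of a time point were pooled in 1 library, so the time after IFNα and the library cannot be told apart in any comparison below. The control library held 209 gated cells of 2474, the 3 h library 146 of 1661, the 24 h library 430 of 3462 and the 72 h library 282 of 2449. Per mouse the gated share was 9.27% ± 2.48 (SD, n = 4) in control. It was 8.79% ± 0.805 at 3 h, then 12.1% ± 2.32 at 24 h, and 11.5% ± 0.468 at 72 h. Gated cells numbered 88, 56, 58 and 7 in the 4 control mice and 26, 36, 53 and 31 in the 3 h mice. They numbered 75, 188, 79 and 88 in the 24 h mice and 88, 59, 72 and 63 in the 72 h mice. Control mouse 4 therefore stands apart, with 7 gated cells and 76242 gated UMIs where the deepest mouse had 2634467, and results that turn on it are given with and without it. Gated cells were shallower than the other cells, with a median of 11003 against 20234 UMIs in control and 8646 against 12586 at 3 h. The later medians were 12088 against 20466 for the 24 h library and 10668 against 15748 for the 72 h library. In the 3 h library 17.2% of barcodes had no hashtag call, against 4.372% to 5.452% in the other libraries. No gated barcode was shared between libraries.

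The edge of the gate was not sharp. Exactly 2 of the 5 markers were seen in 566 gated cells, with a median of 11130 UMIs and a mean of 3.85 Hlf UMIs per cell. Just outside, 648 cells met the other criteria with 1 marker, with a median of 13118 UMIs and 2.62 Hlf UMIs. All 5 markers were seen in 16 cells. A lineage gene alone removed 447 cells, most of them through Flt3.

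Genes that the gate did not use followed its label in the control mice. Of 40 further HSC genes, 39 had a higher mean level in gated than in other control cells, 34 were higher in every control mouse, and 30 were higher in every 1 of the 16 mice. All levels are UMIs summed over the gated cells of a mouse and scaled to CPM, the usual counts-per-1000000 unit. In this paragraph CPM are of all UMIs, without TMM scaling. In control, Pdzk1ip1 stood at 243 CPM in gated and 26.9 CPM in other cells. Cdkn1c, a cyclin-dependent kinase inhibitor of quiescent HSCs, stood at 48.4 and 2.02 CPM, and Hoxb5 at 17.8 and 1.30 CPM. The exception was Gfi1, a repressor also used in granulocyte progenitors, with 8.43 CPM in gated and 31.6 CPM in other cells. Cd48, whose protein was absent from the added sorted cells, was at 34.4 CPM in gated and 158 CPM in other cells. Cd34, whose protein was also absent from the added cells, differed less, with 129 CPM in gated and 174 CPM in other cells. These are descriptions without a test, because the gate and these genes come from the same cells.

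Marker lists of other cell types were partly at 0 UMIs in the gated cells. At 0 were 4 of 11 lymphoid progenitor genes (Il7r, Rag1, Igll1 and Pax5), 4 of 10 T and NK cell genes (Cd3e, Cd3g, Cd8a and Klrd1), 2 of 13 monocyte and dendritic genes (Siglech and Itgax) and 2 of 11 genes of stroma and endothelium (Col1a1 and Pdgfra). Ly6g alone of 13 neutrophil genes, Gp6 alone of 10 megakaryocyte genes and none of 15 erythroid genes were at 0. In control the summed levels were 51.5 CPM for lymphoid progenitor, 162 CPM for T and NK, 278 CPM for megakaryocyte and 856 CPM for monocyte and dendritic genes. The neutrophil list summed to 3006 CPM ± 1865 (SD, n = 4) in control and 3018 ± 1959 at 3 h. Later it was 2466 ± 576 (24 h) and 977 ± 580 (72 h), with Prtn3 its most abundant gene. Erythroid genes summed to 1292 CPM in control and 1053, 1332 and 1383 CPM at 3, 24 and 72 h, with Car2 the most abundant.

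After 3 h of IFNα the gated cells held far more RNA of nearly every gene on the antiviral list. A gene is called here when its adjusted p was below 0.05 and its level changed at least 2-fold (log2 change of 1) in edgeR's quasi-likelihood test on counts summed per mouse, with Benjamini-Hochberg adjustment over the 8073 genes tested. At 3 h, 336 genes rose, or 4.16% of those tested, and 73 fell, or 0.904%. In the list of ISG effectors, many of whose products block viral replication, 56 of 60 tested genes rose and none fell. The list's median log2 change was 3.23, against -0.03 over all genes. The count was 55 or 56 whichever mouse was left out. The fit weights a mouse by its UMIs, so a fitted change can differ from the ratio of mean CPM, above all where control mouse 4 stands apart.

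The promoters of these genes were searched for the core of the interferon-stimulated response element. The letters GAAANNGAAA, or TTTCNNTTTC on the other strand, were looked for in the 300 bases from 250 before to 50 after the gene start, taken from RefSeq on build GRCm38.p6. They were in 943 of 27025 promoters, or 3.49%, and in 3.47% of the tested genes that have a promoter in the table. Of the 336 genes that rose at 3 h, 254 had a promoter in the table and 58 of these (22.8%) held the letters, while 1 of 54 genes that fell did (1.85%). Among the ISG effectors 25 of 49 held them (51.0%). The windows below show 30 bases, 5′ to 3′ on the gene's strand, around 1 match in genes named in this section, with the matched letters in capitals. A match is a description of the letters only.
Ifit3: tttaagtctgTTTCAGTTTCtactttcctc
Ifit1: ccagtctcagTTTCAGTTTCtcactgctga
Isg15: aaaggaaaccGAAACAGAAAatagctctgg
Rsad2: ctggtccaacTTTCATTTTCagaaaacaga
Cxcl10: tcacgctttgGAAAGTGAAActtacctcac
Socs1: gccggaaagaGAAACCGAAAgcgggggtgg
Stat2: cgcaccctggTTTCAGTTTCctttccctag
Distances are to the gene start in RefSeq, which can differ by a few bases from the gene position given in the text that follows. The match started 122 bases before that start in Ifit3 (window chr19:34583397-34583426, + strand) and 85 bases before it in Ifit1 (chr19:34640794-34640823, + strand). In Isg15, where 3 matches overlapped, the one shown started 66 bases before the start (chr4:156200865-156200894, - strand). It lay 120 bases before the start in Rsad2 (chr12:26456553-26456582, - strand), 213 in Cxcl10 (chr5:92349083-92349112, - strand), 77 in Socs1 (chr16:10785594-10785623, - strand) and 222 in Stat2 (chr10:128270266-128270295, + strand). Ifit3 and Ifit1 share all 10 letters of the match, and the same 10 letters stand in Stat2.

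Ifit3, which encodes a protein that binds to the RNA-sensing Ifit1 complex, lies at chr19:34583531-34588731 on the + strand (build mm10). It stood at 7.49, 1.46, 7.53 and 173 CPM in the 4 control mice and at 1197, 1055, 1178 and 876 CPM after 3 h. The groups did not overlap, and the single high control value was that of mouse 4, the mouse with 7 gated cells. Ifit3 rose by 6.58 on the log2 scale (SE 0.35, adjusted p = 2.40e-17), and by 7.47 without control mouse 4. With all mice its log2 change was 4.73 in DESeq2 and 5.74 in edgeR's likelihood ratio test. Ifit3b, its near-identical neighbour, rose by 5.77, and reads that fit both copies cannot be assigned with certainty.

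Isg15, a ubiquitin-like modifier (chr4:156199424-156200818, - strand), stood at 90.7, 27.7, 70.2 and 681 CPM in control and at 2048, 2176, 2206 and 1919 CPM after 3 h. Every treated mouse was above every control mouse, and control mouse 4 was again high. The rise was 22.2-fold (log2 4.47, SE 0.30, adjusted p = 2.09e-14), and 4.97 on the log2 scale without that mouse. With all mice DESeq2 gave a log2 change of 3.36 and edgeR's likelihood ratio test 3.51. Rsad2, the antiviral enzyme viperin, rose by 5.09 on the log2 scale (SE 0.25), Ifit1 by 5.36 (SE 0.27) and Mx1, a dynamin-like GTPase, by 5.81 (SE 0.35). Further large rises were those of Ifit1bl1 (log2 7.48, SE 0.49), Gm4955 (7.06) and Ifi204, a DNA-binding PYHIN protein (5.77, SE 0.40).

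Pydc3, a pyrin-domain gene (chr1:173673675-173698395, + strand), had 0 UMIs in the gated cells of all 4 control mice. After 3 h it stood at 51.9, 41.4, 44.3 and 37.0 CPM. With 0 UMIs in the 2663550 control UMIs, up to 3 UMIs are possible, or 1.13 CPM of all UMIs without TMM scaling. On that scale its mean after 3 h was 39.4 CPM, at least 34.9-fold above the limit. Its close relative Pydc4 rose by 5.64 on the log2 scale (SE 0.57), and the split of reads between them is uncertain.

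ISG effector UMIs were also counted in single gated cells. Each cell was thinned to 5000 UMIs, which left out 25 shallower gated cells. ISG effector UMIs per cell then had a median of 29 in control and 158 at 3 h, and of 47 and 28 in the 24 h and 72 h cells. The lowest of the 141 cells at 3 h had 65. That level was reached by 7 of 207 control cells (3.38%), 73 of 422 cells at 24 h (17.3%) and 1 of 272 cells at 72 h (0.368%). The control cells that reached it include 1 cell of mouse 1 with 189 ISG effector UMIs and 1 cell of mouse 4 with 166, so the high mean of mouse 4 rested largely on a single cell.

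**Figure D1:**
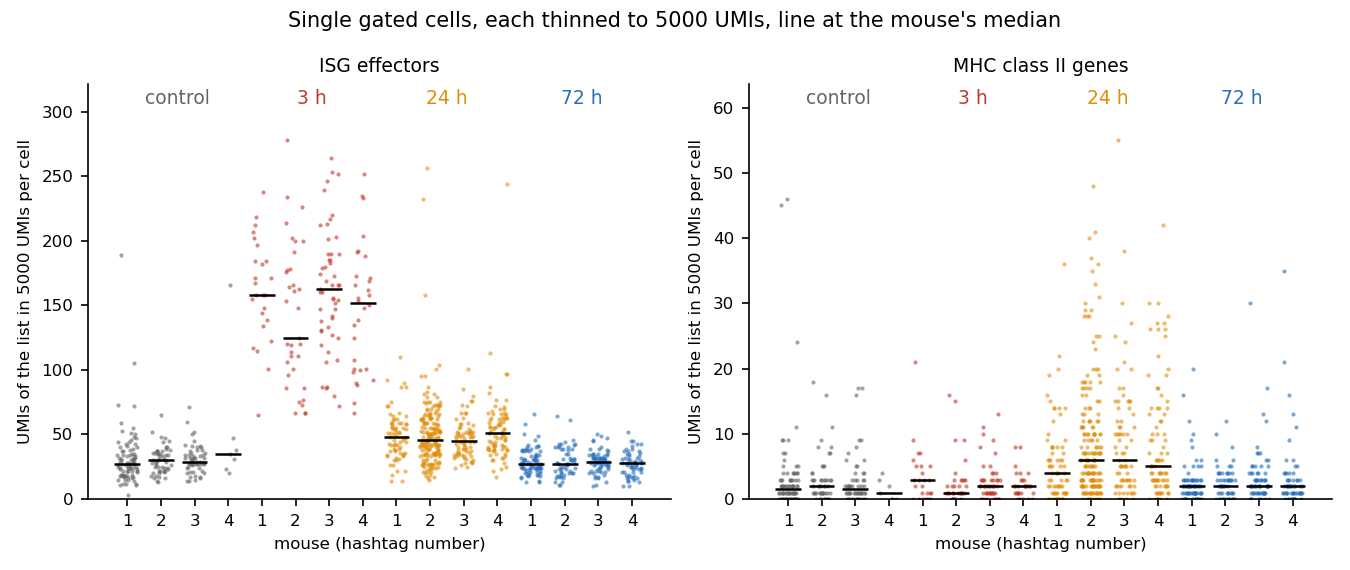
UMIs of the ISG effector list (left) and of the MHC class II list (right) in single gated cells thinned to 5000 UMIs; each point is 1 cell, the x axis gives the mouse within each time point, and the line is the mouse's median. At 3 h the lowest of the 141 cells carried 65 ISG effector UMIs, a count that 7 of 207 control cells also reached, and at 24 h the MHC class II counts spread upward in all 4 mice.

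Some of the genes that carry the signal rose with its targets. Of 18 tested genes for the receptor, signalling and feedback, 9 rose at 3 h and none fell (median log2 change 0.84). Irf7, a transcription factor that amplifies interferon responses (chr7:141262706-141266481, - strand), stood at 17.5, 10.2, 32.6 and 198 CPM in control and at 687, 455, 698 and 519 CPM after 3 h. The groups did not overlap, and the rise was 22.6-fold (log2 4.50, SE 0.27, adjusted p = 9.35e-16). Stat2 rose by 2.73 on the log2 scale. Among the feedback genes, Usp18, a protease that removes Isg15 and blocks the receptor, rose by 4.64 (SE 0.21), Socs1 by 3.05 (SE 0.25) and Socs3 by 2.04 (SE 0.49). The receptor genes were not called. Ifnar1 stood at 29.9 CPM in control and 20.3 CPM at 3 h, and Ifnar2 at 51.6 and 74.2 CPM.

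Sensors of foreign nucleic acid followed, with 7 of 10 tested genes up. Ddx58, which encodes RIG-I, rose by 3.57 on the log2 scale (SE 0.19), Ifih1, which encodes MDA5, by 3.11 (SE 0.17), and Zbp1, a sensor of Z-form nucleic acid, by 3.52 (SE 0.29). Zbp1, Ifi203 and Ifi204 are also in the ISG effector list, as is Usp18 of the signalling and feedback list. Of 19 MHC class I genes, which load and present peptides from inside the cell, 8 rose. They include H2-T22 (log2 1.59, SE 0.11), the peptide transporter Tap1 (1.57, SE 0.16) and the immunoproteasome subunit Psmb10 (1.27, SE 0.11). With scaling by library size alone, 4 of the 19 rose. The most abundant MHC class I gene, B2m, went from 2190 to 2573 CPM and was not called.

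Death and cytokine genes were among the rises. Of 23 tested cell-death genes 7 rose at 3 h and none fell, with a median log2 change of 0.24. Casp4, an inflammatory caspase, rose by 2.35 on the log2 scale (SE 0.26), Casp1 by 1.96 (SE 0.24), Mlkl, the executor of necroptosis, by 2.25 (SE 0.33), and Tnfsf10, the death ligand TRAIL, by 2.08 (SE 0.19). Of 8 tested chemokines and cytokines, Cxcl10, Csf1 and Tnfsf10 rose. Cxcl10, a chemokine for T cells (chr5:92346638-92348889, - strand), stood at 618, 476, 483 and 694 CPM at 3 h and at 1.66, 1.46, 5.02 and 693 CPM in control. The groups overlapped through control mouse 4 alone. Its rise was 4.43 on the log2 scale (SE 0.62, adjusted p = 1.22e-06) and 7.68 without that mouse (adjusted p = 8.21e-17). With all mice DESeq2 gave 1.72 (adjusted p = 0.697) and edgeR's likelihood ratio test 1.78 (adjusted p = 0.258), neither of them a call. The call of Csf1 (log2 2.32, SE 0.63) was lost without control mouse 3 or without 3 h mouse 3, with an adjusted p of up to 0.136.

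**Figure D2:**
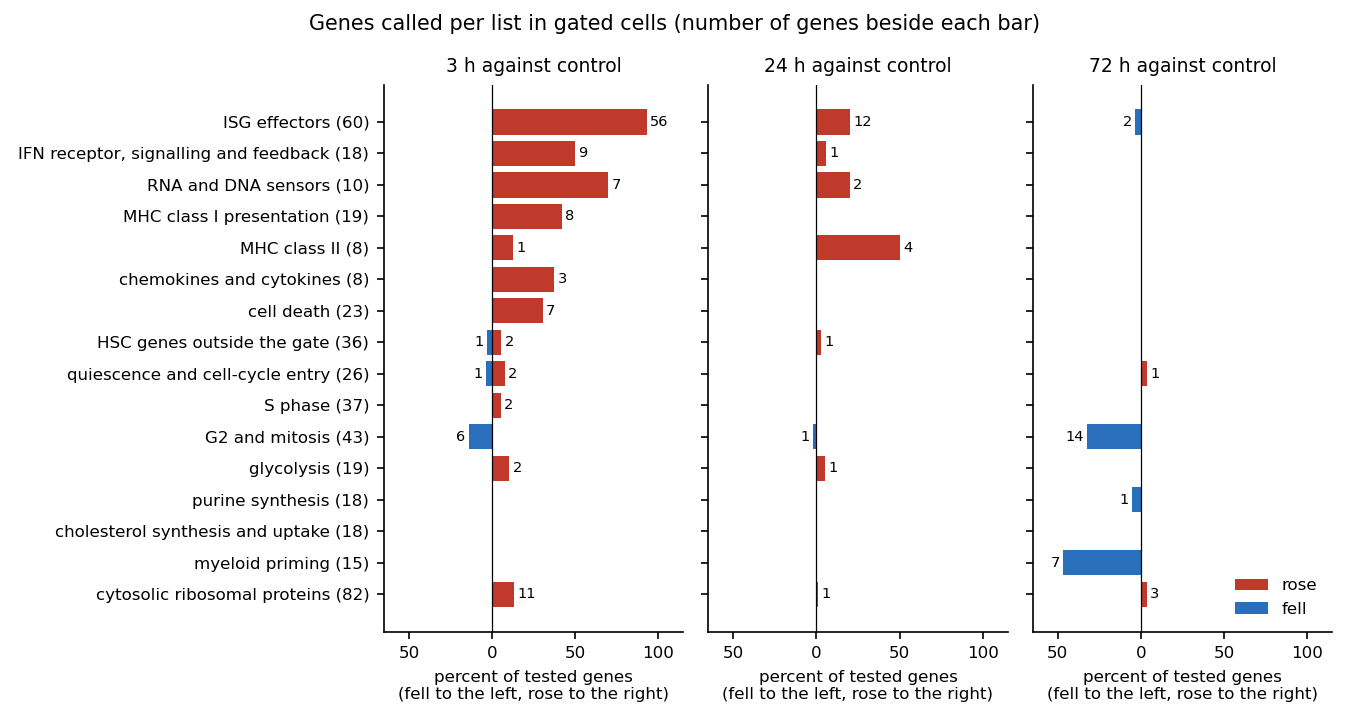
Percent of tested genes of each list that rose (red, to the right) or fell (blue, to the left) against control at 3, 24 and 72 h in gated cells; the number beside a bar is the number of genes, and the number after a list's name is how many of it were tested. ISG effectors led at 3 h with 56 of 60, MHC class II had 4 of 8 up at 24 h, and G2 and mitosis had 14 and myeloid priming 7 of the 50 falls at 72 h.

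Among HSC genes, the surface marker gene Ly6a changed most plainly. Ly6a (chr15:74994877-74998031, - strand) stood at 205, 178, 162 and 322 CPM in control and at 1067, 1083, 1141 and 825 CPM at 3 h. It was 492, 434, 479 and 504 CPM at 24 h and 146, 197, 237 and 186 CPM at 72 h. The 3 h mice lay above all others, the 24 h mice lay above control, and the 72 h mice overlapped with control. The rise was 5.38-fold at 3 h (log2 2.43, SE 0.13, adjusted p = 3.22e-17) and 2.48-fold at 24 h (1.31, SE 0.13, adjusted p = 1.72e-09).

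Of the 36 tested HSC genes, 2 rose and 1 fell at 3 h, with a median log2 change of 0.00. Over all genes tested 4.16% rose and 0.904% fell, so the 2 rises are near the background. The other rise was that of Nupr1, a stress-induced nuclear protein, from 37.1 to 108 CPM (log2 1.79, SE 0.36, adjusted p = 3.42e-04). Esam, an adhesion molecule of endothelium and HSCs (chr9:37528078-37538319, + strand), stood at 70.7, 84.5, 64.0 and 49.5 CPM in control and fell to 30.2, 37.9, 39.9 and 26.9 CPM at 3 h. The groups did not overlap. The fall (log2 -1.05, SE 0.22, adjusted p = 6.96e-04) lay close to the 2-fold limit, which it missed without control mouse 2, without 3 h mouse 1 and without 3 h mouse 4, at an adjusted p of up to 0.00702. The 3 h call of Esam was also lost with a stricter gate of at least 3 markers and with a looser gate of at least 1. It was lost as well without cells rich in granule or platelet genes, and the call of Nupr1 was lost with the stricter gate. At 24 h Esam was 64.4, 55.6, 63.5 and 54.4 CPM. Meis1, a homeobox regulator of HSCs, stood at 231, 231, 232 and 251 CPM at control, 3, 24 and 72 h. Hlf itself, a gate gene given without a test, had means of 328, 332, 351 and 385 CPM.

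Called rises among cell-cycle genes at 3 h were few and near the background of 4.16% of all genes tested. Of 26 tested genes for quiescence and cell-cycle entry 2 rose and 1 fell (list median -0.02). Ccnd2, a cyclin of the G1 phase, rose from 306 to 585 CPM (log2 1.04, SE 0.10, adjusted p = 5.84e-10), and Rbl2, a pocket protein of resting cells, fell from 40.9 to 16.4 CPM (log2 -1.12, SE 0.32, adjusted p = 0.0141). Ccnd2 dropped below the 2-fold limit without control mouse 3 or 3 h mouse 3, and Rbl2 lost its call without 3 h mouse 3 or 3 h mouse 4, with an adjusted p of up to 0.0902. The other rise was that of Ccne2, a cyclin of the entry into S phase (log2 1.55, SE 0.51, adjusted p = 0.0457), a call lost in 11 alternatives, among them the removal of control mouse 1, 2 or 3 or of 3 h mouse 1 or 4 (adjusted p of up to 0.177). Of 37 S-phase genes 2 rose, with a list median of 0.25. They were Hells, a chromatin remodeller (log2 1.22, SE 0.24), and the replication licensing gene Cdc6 (1.07, SE 0.34), whose adjusted p reached 0.313 when single mice were left out. A positive log2 change, mostly not called, was seen in 32 of the 37. In cells thinned to 5000 UMIs, 9.18% of control and 17.0% of 3 h cells carried at least 20 S-phase UMIs. Per mouse these shares were 10.2, 7.41, 8.62 and 14.3% in control and 12.0, 17.1, 13.7 and 26.7% at 3 h. The groups overlapped through control mouse 4, and the difference was not tested. Of 43 tested genes of G2 and mitosis 6 fell and none rose, with a list median of -0.60.

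Mki67, the proliferation marker (chr7:135689784-135716361, - strand), stood at 104, 64.1, 123 and 37.1 CPM in control and at 34.6, 31.0, 22.1 and 47.1 CPM at 3 h. The groups overlapped through control mouse 4. The fall was 2.95-fold (log2 -1.56, SE 0.33, adjusted p = 6.90e-04). The list count was not stable, with 1 fall without control mouse 1, 8 without control mouse 2, and 0 when the cells with the most UMIs were left out or the gate was set on thinned cells. In thinned cells, 17 of 207 control cells (8.21%) and 5 of 141 cells at 3 h (3.55%) carried at least 30 UMIs of this list, so the levels rested on few cells.

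Further falls at 3 h were Epb41l4b, a cytoskeletal linker, from 39.3 to 11.6 CPM (log2 -1.92, SE 0.36, adjusted p = 1.48e-04) and Osbpl3, an oxysterol-binding protein, from 15.1 to 2.79 CPM (-2.31, SE 0.59, adjusted p = 0.00676). Both were called whichever mouse was left out. Hmmr, a gene of mitosis, fell by 1.95 on the log2 scale, and its adjusted p was 0.0539 without control mouse 1. The erythroid genes Car1 (log2 -5.04) and Gata1 (-2.63) and the genes Pex11a (-2.22), Gm11423 (-2.12) and Gadd45a (-1.94) also fell. Each of these 5 calls was lost when certain single mice were left out, with an adjusted p of up to 0.565, 0.157, 0.0858, 0.139 and 0.0843 in that order. The mice in question were control mouse 1 and any 3 h mouse for Car1 and Gm11423, control mouse 1 or 3 or 3 h mouse 3 or 4 for Gata1, control mouse 2 or 3 h mouse 2, 3 or 4 for Pex11a, and control mouse 2 or 3 or 3 h mouse 1, 3 or 4 for Gadd45a.

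A further 11 of 82 ribosomal protein genes rose at 3 h, as did 3 of 13 mitochondrially encoded genes. Rpl35 (chr2:39001580-39005624, - strand) stood at 656, 724, 637 and 594 CPM in control and at 3077, 3692, 3446 and 3118 CPM at 3 h. It stood at 1365, 1383, 1305 and 1392 CPM at 24 h and at 2248, 2495, 2377 and 2309 CPM at 72 h. The 4 groups did not overlap. The other cells moved the same way, with means of 695, 3753, 1634 and 2540 CPM at control, 3, 24 and 72 h, so this pattern ran through each library. Rpl38 rose by 1.74, Rps29 by 1.60 and mt-Nd3 by 1.83 on the log2 scale at 3 h. Whether the library or IFNα moved these genes cannot be told apart.

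**Figure D3:**
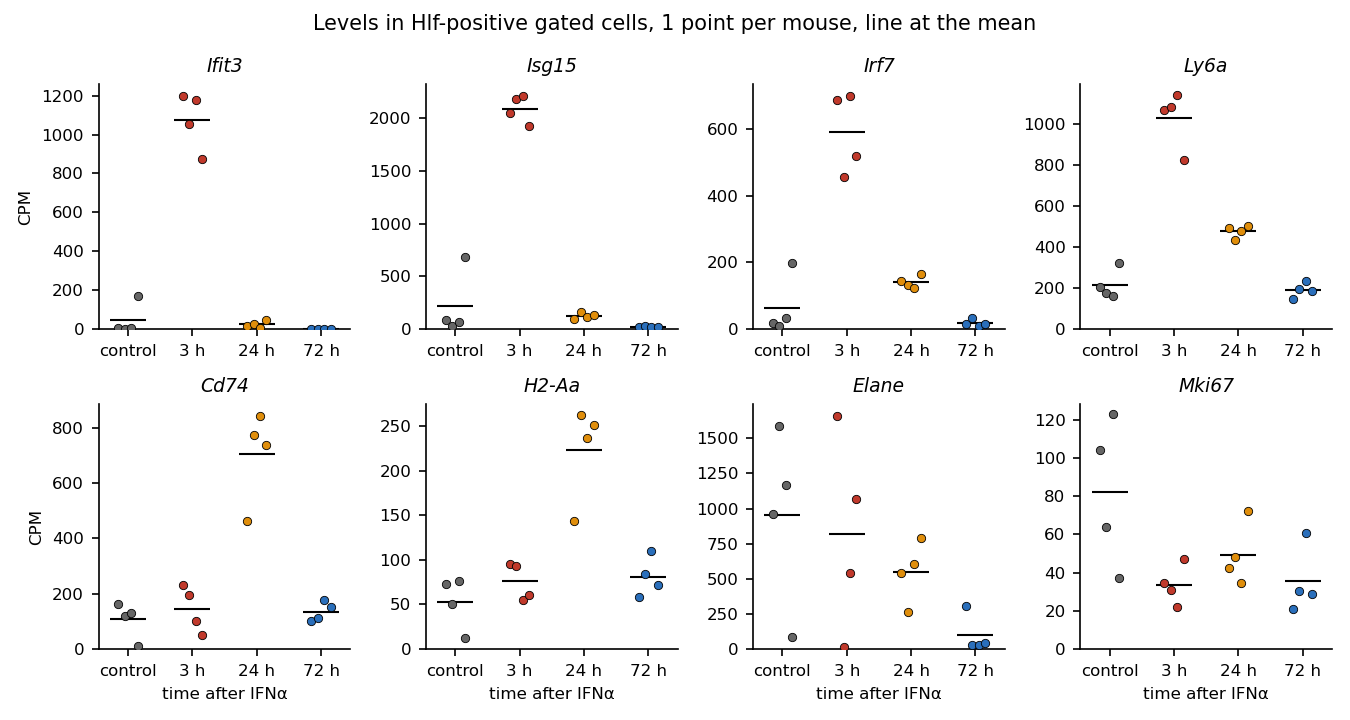
CPM of 8 genes in gated cells by time after IFNα; each point is 1 mouse and the line is the mean of 4 mice, with a linear axis from 0. Ifit3, Isg15, Irf7 and Ly6a peaked at 3 h, Cd74 and H2-Aa at 24 h, and the highest control point of Ifit3, Isg15, Irf7 and Ly6a is mouse 4.

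At 24 h the antiviral genes had largely fallen back and MHC class II genes were up. Against control, 40 genes rose, or 0.495%, and 7 fell, or 0.0867%. Of the ISG effectors 12 of 60 were still called above control (median log2 change 0.65, all genes 0.01). This count was 7 without control mouse 2 and 17 without control mouse 4, and DESeq2 called 4. Most of the list stayed above control, since 56 of the 60 had a positive log2 change and 38 an unadjusted p under 0.05. Of 18 signalling genes, Irf7 alone was still called up, at 143, 132, 124 and 166 CPM (5.38-fold, log2 2.43, SE 0.29, adjusted p = 3.07e-07). Control mouse 4, with 198 CPM, crossed this range, and DESeq2 did not call Irf7. Ifit3, at 19.0, 28.2, 4.96 and 49.7 CPM, was not called against control (adjusted p = 0.313), but was without control mouse 4. Isg15 was not called either (log2 0.48, SE 0.32, adjusted p = 0.630). None of the 19 MHC class I genes was called at 24 h, but 18 had a positive log2 change and 13 an unadjusted p under 0.05. Their summed level had not fallen back, with 8387 CPM in control, 11636 CPM at 3 h and 10825 CPM at 24 h.

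Ifi27l2a behaved differently. This small mitochondrial and nuclear ISG product (chr12:103442167-103443680, - strand) stood at 10.8, 4.37, 12.5 and 12.4 CPM in control, at 86.4, 89.6, 97.4 and 43.8 CPM at 3 h and at 93.0, 97.7, 121 and 77.0 CPM at 24 h. The control mice lay below all of these, and the 3 h and 24 h mice overlapped. It was 9.78-fold above control at 24 h (log2 3.29, SE 0.24, adjusted p = 2.34e-12), and the step from 3 to 24 h was not called (0.26, SE 0.19, adjusted p = 0.474). By 72 h it was back at 7.08, 11.9, 9.38 and 12.2 CPM.

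MHC class II molecules present peptides from outside the cell, usually on dendritic cells, macrophages and B cells. Of 8 tested genes of this list, Cd74, H2-Eb1, H2-Aa and Ctss rose at 24 h and none fell, with a list median of 1.13. DESeq2 called 2 rises in the list. Cd74, the invariant chain, stood at 163, 121, 132 and 12.4 CPM in control and at 233, 197, 102 and 50.5 CPM after 3 h. It was 463, 772, 843 and 737 CPM in the 24 h mice and 100, 114, 176 and 153 CPM in the 72 h mice. The 24 h mice lay above all 12 others. The rise was 5.26-fold (log2 2.40, SE 0.21, adjusted p = 2.13e-10) and was called in each alternative and with each mouse left out.

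H2-Aa, a class II alpha chain (chr17:34282744-34287823, - strand), stood at 73.2, 51.0, 76.5 and 12.4 CPM in control and at 144, 262, 237 and 251 CPM at 24 h. The groups did not overlap, and the rise was 3.44-fold (log2 1.78, SE 0.19, adjusted p = 1.14e-08). H2-Eb1, a beta chain (chr17:34305867-34316674, + strand), went from 32.4, 24.8, 21.3 and 12.4 CPM to 57.0, 121, 119 and 103 CPM, again without overlap (3.87-fold, log2 1.95, SE 0.24, adjusted p = 6.68e-07). Ctss, a protease of class II processing, had already risen at 3 h (log2 2.38, SE 0.30) and was up by 1.42 (SE 0.27) at 24 h. Its call at 24 h was lost with the stricter gate and the gate on thinned cells, and that at 3 h with the stricter gate. H2-Ab1, with 47.6 CPM in control and 103 CPM at 24 h, was not called, nor was H2-DMa, with 131 and 143 CPM.

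The rise spread over many cells. With cells thinned to 5000 UMIs, at least 10 MHC class II UMIs were found in 4.83% of control cells and 4.26% at 3 h, and then in 32.7% (24 h) and 5.51% (72 h) of cells. In the 24 h mice the shares were 17.8, 34.4, 40.3 and 34.9%. The share of cells with at least 1 UMI of Cd74 at equal depth was 22.4% ± 5.98 (SD, n = 4) in control and 63.9% ± 10.1 at 24 h, against 26.8% and 76.5% without thinning. In the erythroid cells of the same libraries, which should lack Cd74, the thinned share was 0% in control and 1.38% at 24 h. The share was also higher at 24 h outside the gate. Over all other cells it was 2.37% ± 1.63 in control and 10.3% ± 2.72 at 24 h, or 4.02% and 17.6% without thinning. In lymphoid-primed cells, defined here by a UMI each of Dntt and Flt3 and none of Hlf, it was 6.07% ± 2.96 (3 control mice, since control mouse 4 had no such cell) and 19.7% ± 6.98, or 12.6% and 43.0% without thinning. The difference of 41.5 points in gated cells had an exact two-sided permutation p of 0.0286, the smallest that 4 against 4 mice allow, and an adjusted p of 0.171 over the 12 share tests. Those 12 include Gzmb at 3, 24 and 72 h, with 0 UMIs in every gated cell. The outcome of its tests was thus fixed before they ran, and they only enlarge the adjustment. The monocyte and dendritic list, of which 4 of 13 genes were tested and 2 rose (Ms4a6c and Ctss), summed to 856 CPM in control and 884 CPM at 24 h, with Cst3 its most abundant gene, and its dendritic markers Siglech and Itgax had 0 UMIs.

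Other rises at 24 h were those of Hist1h2ap, a replication-dependent histone, from 13.9 to 94.9 CPM (log2 2.48, SE 0.30), and of the unnamed genes Gm4070 (2.08) and Gm10076 (2.03), whose reads may also fit near-identical copies. The other cells rose in Hist1h2ap too, from 20.4 to 168 CPM. Of the 7 falls, 6 met the rule for named genes, those of Hdc, the histamine-forming enzyme (log2 -1.89, adjusted p = 0.0167), Banp (-1.28), 1810011H11Rik (-1.19), Hist1h1d (-1.17), Rpl13-ps3 (-1.13) and Cenpf, a kinetochore protein (-1.07). The other was S100a8, a neutrophil granule gene named after its values were seen, at 15.5 CPM in control and 6.07 CPM at 24 h (log2 -1.86, SE 0.53, adjusted p = 0.0498). Its call was lost in 13 alternatives, the removal of 24 h mouse 2, 3 or 4 among them (adjusted p of up to 0.295). Each of the 6 falls by the rule was lost when some single mouse was left out, with an adjusted p of up to 0.331, 0.0739, 0.301, 0.480, 0.0819 and 0.166 in that order. For Hdc these were control mice 2 and 3, for Banp control mouse 3 and 24 h mouse 2, and for Cenpf control mice 1 and 3 and 24 h mouse 1. For 1810011H11Rik they were control mice 2 and 3 and 24 h mice 1, 2 and 3, for Hist1h1d control mice 2 and 3 and 24 h mice 1 and 3, and for Rpl13-ps3 control mice 1 and 2 and 24 h mice 2, 3 and 4.

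At 72 h no ISG effector was called above control, and more genes fell than rose. Against control, 28 genes rose, or 0.347%, and 50 fell, or 0.619%. Of the 60 ISG effectors Isg15 and Plac8 fell (list median log2 change -0.27), 20 had a positive log2 change that was not called, and DESeq2 called 6 falls and 0 rises. Isg15 stood at 24.3, 29.1, 23.5 and 18.3 CPM. These values lay below 3 control mice and overlapped with control mouse 2 at 27.7 CPM. Its fall (log2 -1.97, SE 0.45, adjusted p = 0.00541) was called whichever mouse was left out. In control, however, 6 of 209 gated cells held 57.7% of the 239 Isg15 UMIs. The median gated cell held 0 Isg15 UMIs both in control and at 72 h. The call of Plac8 (log2 -1.11) was lost without control mouse 2 or 72 h mouse 3 or 4, with an adjusted p of up to 0.0765. No gene of the MHC class I, MHC class II, sensor and cell-death lists was called by edgeR at 72 h, where 6 of 19, 0 of 8, 2 of 10 and 1 of 23 had an unadjusted p under 0.05. DESeq2 called 0 genes of these lists but for 2 falls among the sensors.

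Granule and myeloid genes fell at 72 h, with 7 of 15 tested genes of the myeloid priming list down and none up (list median -0.89, all genes 0.01). DESeq2 called 1 of these falls, and those of Mpo, Ctsg and Ms4a3 were lost with it. Elane, neutrophil elastase (chr10:79886247-79888215, + strand), stood at 963, 1590, 1165 and 86.6 CPM in control and at 1659, 13.8, 538 and 1068 CPM after 3 h. It was 540, 262, 602 and 787 CPM in the 24 h mice and 308, 30.4, 29.3 and 44.3 CPM in the 72 h mice. The 72 h mice overlapped with control through control mouse 4. The fall was 9.73-fold (log2 -3.28, SE 0.54, adjusted p = 8.96e-05), and the log2 change was -4.99 without 72 h mouse 1, the highest of its group. Mpo, myeloperoxidase, fell by 2.17 on the log2 scale, Ctsg, cathepsin G, by 1.93, Cebpe, a granulocyte transcription factor, by 4.34, Fcgr3 by 3.51 and Ly6c2 by 2.85. S100a8 (log2 -3.03), Hp (-2.89), Anxa3 (-2.58) and Hdc (-2.71) fell as well. Without control mouse 3 the adjusted p of Cebpe was 0.0572 and that of Hdc 0.0956, and without control mouse 2 that of Ctsg was 0.0574.

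These levels came from very few cells. Of 3186 Elane UMIs in the control group, 93.3% lay in 6 of 209 gated cells and 33.4% in 1 cell. Cells with at least 10 Elane UMIs numbered 6 in the control group and 3, 10 and 2 in the groups of 3, 24 and 72 h, and the median gated cell held 1, 0, 0 and 0. In all, 61 gated cells carried at least 10 UMIs of Elane, Mpo, Ctsg, Prg2 or Pf4, and their median of 24884 UMIs was above the 11025 of all gated cells. Whether they are pairs of cells of the same mouse was not tested. Without them the summed myeloid priming level was 1104 CPM ± 104 (SD, n = 4) in control and 943 CPM ± 139 at 72 h, against 3603 ± 2077 and 1292 ± 613 with them, here as CPM of all UMIs without TMM scaling. Since these cells were picked by genes of the same list, the lower level is fixed by the choice. Elane in the remaining cells, whose Elane counts are limited by the choice, had a log2 change of -1.22 at 72 h, given without a test. The stricter gate left 0 falls in the list, and Elane was 4.01-fold lower there but not called (adjusted p = 0.148).

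**Figure D4:**
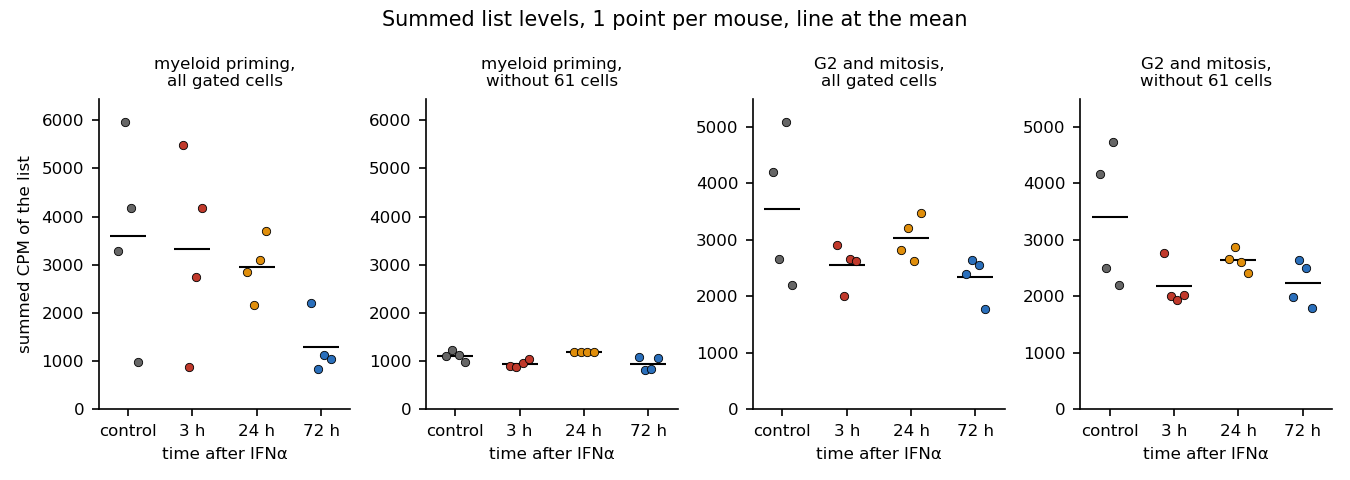
Summed CPM (of all UMIs, without TMM scaling) of the myeloid priming list and of the G2 and mitosis list, with all gated cells and without the 61 cells rich in granule or platelet genes; each point is 1 mouse and the line is the mean of 4 mice. The myeloid priming means of 3603, 3317, 2947 and 1292 CPM became 1104, 941, 1191 and 943 CPM.

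Mitotic genes were also lower at 72 h, with 14 of 43 tested genes down and none up (list median -0.90). Mki67 stood at 21.2, 30.4, 61.0 and 29.0 CPM and overlapped with control mouse 4 at 37.1 CPM. It fell 2.70-fold (log2 -1.44, SE 0.25, adjusted p = 1.75e-04). Cenpf fell by 2.29 (SE 0.32), Hmmr by 2.09 (SE 0.38), Ube2c, which drives exit from mitosis, by 2.17 (SE 0.47) and Top2a, a topoisomerase, by 1.06 (SE 0.21). Top2a missed the call in 6 alternatives, among them the 3 other gates and the removal of control mouse 3 or 72 h mouse 1 or 4, and Ube2c was lost with DESeq2 and without the cells of most UMIs. The count was 13 without the 61 granule-rich cells but 3 without the cells of most UMIs, 2 with DESeq2 and 0 with the gate on thinned cells, and it was 5 without control mouse 3 and 23 without control mouse 2. At least 30 UMIs of the list in 5000 were found in 4.04% of cells at 72 h, against 8.21% in control. Per mouse the shares were 4.76, 5.26, 4.35 and 1.61% at 72 h and 9.09, 3.70, 12.1 and 0% in control, so the groups overlapped. The share of cells with a Mki67 UMI at equal depth was 11.1% ± 5.96 (SD, n = 4) in control and 7.46% ± 4.48 at 3 h, and later 9.72% ± 1.39 (24 h) and 5.55% ± 3.19 (72 h). The exact two-sided permutation p of the difference at 72 h was 0.200 (adjusted p = 0.600 over the 12 share tests).

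The rises at 72 h were led by Lsm7, a splicing factor subunit (log2 2.07, SE 0.18), Rpl35 (1.83, SE 0.07), Gstp1, a glutathione transferase (1.76, SE 0.23), and Hmga1, a chromatin protein (1.70, SE 0.31). The other cells moved likewise, with Lsm7 from 41.7 to 136 CPM and Gstp1 from 23.1 to 69.3 CPM. Gm10076, Gm2000 and Gm8186 (1.91, 1.81 and 1.69) may share reads with near-identical copies. Rbpms2, an RNA-binding protein, stood at 4.16, 2.91, 5.02 and 24.8 CPM in control and 11.1, 22.5, 15.2 and 12.2 CPM at 72 h. The groups overlapped through control mouse 4, which weighs little in the fit (1.64, adjusted p = 0.0323), and the gene lost its call without control mouse 1, 2 or 3 (adjusted p of up to 0.157). Nme2, a nucleoside diphosphate kinase, fell from 36.9 to 15.1 CPM (-1.43, SE 0.23), and its mean in other cells went from 61.6 to 19.3 CPM.

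Between time points, the interferon program went down in both steps. From 3 to 24 h 57 genes rose, or 0.706%, and 260 fell, or 3.22%, and of the ISG effectors 54 of 60 fell (median -2.70). Ifit3 fell by 5.30 on the log2 scale, Isg15 by 3.99 and Ly6a by 1.12 (SE 0.11, adjusted p = 6.04e-10), while Cd74 rose by 2.35 (SE 0.23, adjusted p = 6.46e-10). From 24 to 72 h 7 genes rose, or 0.0867%, and 57 fell, or 0.706%. In this step 24 of the 60 ISG effectors fell (median -1.11), with Irf7 down by 2.92 and Ifi27l2a by 3.27. Cd74, Ctss, H2-Aa and H2-Eb1 all fell, Cd74 by 2.39 (SE 0.20, adjusted p = 1.50e-10). Both steps share the 24 h mice, so their values stand side by side only.

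The response of the gated cells was then set against that of the other cells of the same mice, with the mouse as a block, over 10575 genes. A positive value means that the log2 change against control was higher in gated than in other cells, whichever of them moved. Levels of other cells carry the TMM scaling of this joint fit, on which gated levels are 0.865 to 0.959 times those on the gated scaling given elsewhere. At 3 h, 22 genes, or 0.208%, had a higher log2 change in gated cells and 56, or 0.530%, a lower one. The total was 35 without control mouse 1 and 12 with the gate on thinned cells. The median difference was -0.63 for the 60 tested ISG effectors and -0.07 for all genes, with 12 of the 60 lower and Gbp3 higher. Isg15 had a difference of -1.77 (SE 0.26, adjusted p = 1.38e-05), Apol9b of -2.78 and Zbp1 of -2.01. That of Apol9b was lost without control mouse 1, 3 or 4 (adjusted p of up to 0.178), that of Isg15 with DESeq2 and with the gate on thinned cells, and that of Zbp1 with the latter. For Zbp1 and Isg15 the fold was smaller in gated cells although the level at 3 h was not. Zbp1 stood at 76.0 CPM in gated and 5.20 CPM in other control cells, and at 379 and 248 CPM after 3 h. Isg15 stood at 86.7, 26.5, 65.7 and 589 CPM in gated control cells and at most at 23.2 CPM in other control cells. After 3 h Isg15 stood at 1814 to 2116 CPM in gated and 1589 to 1904 CPM in other cells. In control, 6 of 209 gated cells held 57.7% of the gated Isg15 UMIs. The Isg15 differences at 24 and 72 h (-1.57 and -1.75) share this control level. Of 40 HSC genes outside the gate, 4 had lower differences and none higher, with a list median of -0.59. They were Esam (-1.49), Tek (-3.17), Hoxb5 (-2.04) and Pdzk1ip1 (-1.18). At 24 and 72 h the list medians were -0.36 and -0.49, and neither edgeR nor DESeq2 called any of the 40, with 16 and 18 at an unadjusted p under 0.05. Those of Tek and Hoxb5 were lost without several single mice, control mouse 1 or 2 and 3 h mouse 1 or 4 among them (adjusted p of up to 0.226 and 0.196). With the gate on thinned cells the 3 h differences of Esam, Hoxb5 and Pdzk1ip1 were lost. The stricter gate lost those of Esam, Tek and Hoxb5. Pdzk1ip1 stood at 233 and 159 CPM in gated and 27.5 and 36.9 CPM in other cells at control and 3 h.

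Ms4a6c, a membrane protein of monocytes, had the opposite pattern at 3 h. It went from 30.2 to 310 CPM in gated cells and from 181 to 397 CPM in other cells, a difference of 2.35 (SE 0.17, adjusted p = 9.30e-14) that held under every alternative. Casp1 (1.32, SE 0.26), Ctss (2.05, SE 0.32) and Mpeg1 (4.12, SE 0.65) also rose more in gated cells, but the calls of Casp1 and Ctss were lost with the stricter gate. Mpeg1, a pore-forming protein of macrophages, had 0.835 CPM in gated control cells and 21.3 CPM at 3 h, against 14.2 and 16.6 CPM in other cells. Clec4a2 (5.28) and S100a9 (3.41) were higher as well, and Cxcl9 (-6.88), Gata1 (-2.87) and Pex11a (-2.70) lower. Each of these 5 differences was lost when some single mouse was left out, with an adjusted p of up to 0.915, 0.109, 0.815, 0.235 and 0.137 in that order. The mice were 3 h mouse 4 for Clec4a2, and 3 h mouse 2 for S100a9 and, with control mouse 1, for Cxcl9. They were control mouse 1 or 3 or any 3 h mouse for Gata1, and control mouse 1, 2 or 3 or 3 h mouse 2, 3 or 4 for Pex11a. That of Cxcl10 (-3.14) was -0.44 without control mouse 4 (adjusted p = 0.941).

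At 24 h, 12 differences (0.113%) were higher and 13 (0.123%) lower in gated cells, and the MHC class II genes stood out, with 4 of 8 higher and none lower. Cd74 in other cells stood at 60.0, 55.6, 56.6 and 0 CPM in control and at 25.0, 62.1, 56.1 and 84.4 CPM at 24 h, while the gated cells of the same mice rose. The share of other cells with a Cd74 UMI was nevertheless higher at 24 h than in control, as given above. The difference was 2.36 (SE 0.40, adjusted p = 3.65e-04) for Cd74, 1.67 (SE 0.27, adjusted p = 3.26e-04) for H2-Aa and 1.63 (SE 0.32, adjusted p = 0.00421) for H2-Eb1. DESeq2 gave 2.13 for Cd74 with an adjusted p of 0.816 and 1.77 for H2-Aa with 0.335, so these calls rest on edgeR. That of H2-Eb1 was also lost without control mouse 3 (adjusted p = 0.117).

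Hemoglobin genes had the 3 highest differences among the named genes at 24 h, Hbb-bs (5.40), Hba-a1 (4.99) and Hba-a2 (4.55), with Hbb-bt (2.02) below Cd74. Hba-a1 in the other cells stood at 57.3 CPM in control and 7.36, 7.33 and 13.6 CPM later, while gated cells had 1.88 CPM in control and 10.8 CPM at 24 h. The difference of Hba-a1 was lost without control mouse 1 or 24 h mouse 1 (adjusted p of up to 0.478), and that of Hbb-bt without control mouse 1 (adjusted p = 0.123). DESeq2 called 0 differences of the erythroid list at 24 h, and those of Hbb-bs and Hbb-bt were lost with it. The lowest were Prg3 (-5.78) and Prg2 (-5.53), eosinophil granule genes, and 295 of the 298 Prg2 UMIs of gated control cells lay in 1 cell. Without control mouse 3, which held that cell, neither was called (adjusted p of up to 1.00), and the difference of Prg2 was 0.18. At 72 h, 2 differences (0.0189%) were higher, Hba-a1 (4.32) and Hbb-bs (3.99), and 12 (0.113%) lower. The call of Hba-a1 was lost without control mouse 1 or 3 or 72 h mouse 1 or 2 (adjusted p of up to 0.264), and that of Hbb-bs without control mouse 1 or 3 or 72 h mouse 1 (up to 0.308). The lower ones include Elane (-2.21), Fcgr3 (-2.74), Cenpf (-1.80), Mki67 (-1.10) and Isg15 (-1.75). Each of these 5 lower differences lost its call when some single mouse was left out, with an adjusted p of up to 0.0848, 0.0853, 0.121, 0.279 and 0.0853 in that order. Control mouse 3 was among these mice for all but Isg15, control mouse 1 for all but Elane, and 72 h mouse 4 for all but Cenpf. The others were 72 h mouse 3 for Elane and Fcgr3, 72 h mouse 1 for Mki67 and Isg15, and 72 h mouse 2 for Mki67. DESeq2 called 0 differences at 72 h, where edgeR called 14.

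**Figure D5:**
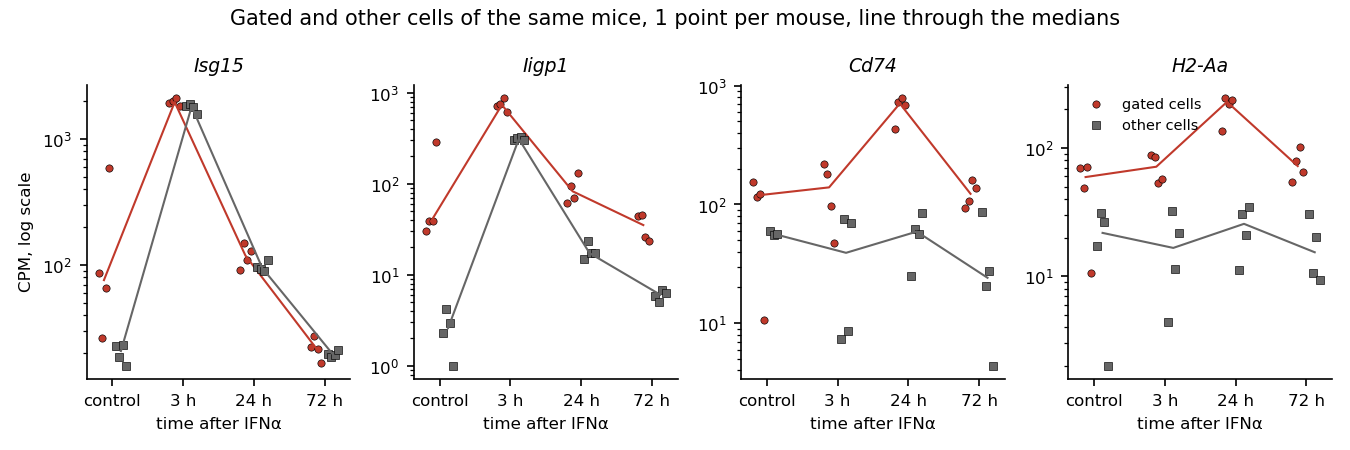
CPM on a log axis in gated cells (circles) and other cells (squares) of the same mice by time after IFNα, both on the scaling of the joint fit, with a line through each median; the 0 of Cd74 in the other cells of control mouse 4 cannot be drawn on this axis. Cd74 in gated cells reached 434 to 790 CPM on this scaling at 24 h, above every other-cell value of 84.4 CPM or less at that time.

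Several lists showed little or nothing. None of 18 tested cholesterol genes was called by edgeR or DESeq2 against control at 3, 24 or 72 h, with medians of -0.24, -0.15 and -0.07, and 3, 3 and 1 of them had an unadjusted p under 0.05. Of 18 purine genes, Nme2 alone was called, at 72 h. Of 19 glycolysis genes Pgk1 (log2 2.14) and Hk2 (1.35) rose at 3 h, as they did in mean level in other cells, from 24.4 to 87.4 CPM and from 22.2 to 91.3 CPM. Of 22 handling-stress genes none was called at 3 or 24 h by edgeR or DESeq2, with 5 at an unadjusted p under 0.05 at each time. Egr1 rose at 72 h (1.01, adjusted p = 0.0399), a call lost in 17 of 28 alternatives and on removal of any control mouse. Megakaryocyte priming had 1 call of 14 genes at 3 h, Gp9 down (log2 -1.40), which was lost without control mouse 1 or 3 h mouse 3, with an adjusted p of up to 0.180. Gzmb, which encodes granzyme B, had 0 UMIs in the 1067 gated cells of all mice and also in the 311 lymphoid-primed cells. At this depth 0 UMIs do not limit the share of cells that express it. The other cells had 5.50, 27.6, 22.3 and 26.2 CPM at control, 3, 24 and 72 h. The mean share of them with a Gzmb UMI was 2.27, 1.99, 1.60 and 1.99% without thinning. The share of cells with a Ly6a UMI at equal depth was 59.5% ± 17.5 (SD, n = 4) in control and 90.3% ± 3.48 at 3 h, or 72.2% and 93.4% without thinning, against 0.225% and 6.26% in erythroid cells (difference 30.8 points, exact permutation p = 0.0286, adjusted p = 0.171). The thinned share was also higher at 3 h in all other cells, with 8.79% ± 1.00 in control and 35.7% ± 2.46, and in lymphoid-primed cells, with 14.0% ± 11.2 (3 control mice) and 70.4% ± 11.1.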

How the data were processed

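Single-cell RNA of 16 mice was measured in 4 libraries, for which the authors deposited raw count matrices (UMIs of each gene in each barcode) from Cell Ranger 3.1.0 and mm10. They also deposited Seurat's hashtag calls with the hashtag counts and a margin score, which was not used. Barcodes with a single hashtag call, at most 5% mitochondrial UMIs and at least 700 genes were kept, as in the study's methods. This removed hashtag multiplets and negatives, while doublets within a mouse remain, and no doublet caller was run. The members and gene lists were chosen with earlier results of these data known.

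Counts were summed over the gated cells of each mouse, the replicate. All 4 groups entered 1 fit with edgeR 4.0.16 (TMM scaling, filterByExpr, quasi-likelihood test) and limma 3.58.1 under R 4.3.3, without the hashtag number, since same-numbered mice were not paired. Their deviations correlated at -0.191 to 0.253 over 24 pairs (median -0.00228), and 2 were over 0.1. CPM are scaled by TMM unless given as CPM of all UMIs. Differences between gated and other cells were tested as an interaction with the mouse as a block, and shares of cells with exact two-sided permutation tests. The 9 gate genes stayed out of the counts of calls. Alternatives used DESeq2 1.42.0, other scalings, filters and gates, and each mouse left out. Genes named are the 8 largest rises and falls at each time and the 5 largest differences each way, called, of at least 10 CPM in the higher group (and for the rises and falls, moved the same way in each treated mouse), plus members of the lists and the gate; some genes that the rule picks are not reported here. Counts drawn with known changes for the 3 h comparison of 7790 genes gave calls for 89.5% of 4-fold and 42.9% of 2-fold changes. By adjusted p alone 60.2% of the 2-fold changes passed, since a call also needs an estimate beyond the 2-fold limit. The draws used a common spread for all genes, so genes or mice of wider spread are not covered. UMI totals per mouse were 76242 to 2634467, and intervals and limits cover counting error only. In replicate pairs the chi-square per degree of freedom was 1.28 to 1.92. The pairs are different mice, so a spread above counting error is given as a description only.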

Additional observations from a re-analysis of the deposited data

Results flagged for a closer look

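A single mouse stood far from the other 3 of its group by Dixon's ratio in 9 of the 96 sets of 4 values examined, and chance alone gives this in about 1 of 20. Control mouse 4, with 7 gated cells, gave the high control value of Ifit3 (173 CPM), Isg15 (681 CPM), Irf7 (198 CPM), Cxcl10 (693 CPM), the summed ISG effectors (10446 CPM) and the thinned share of cells with a Ly6a UMI (85.7%). Cxcl10 also had a single high mouse at 24 h (25.2 CPM) and at 72 h (1.17 CPM), and Elane at 72 h (308 CPM).

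The change against control differed between gated and other cells, by the interaction term, for 78 genes after 3 h, and for 25 and 14 after 24 and 72 h. At 3 h the log2 difference was positive for Clec4a2 (5.28), Hbb-bs (4.85), Mpeg1 (4.12), S100a9 (3.41), Ms4a6c (2.35), Ctss (2.05) and Casp1 (1.32). It was negative for Cxcl9 (-6.88), Tek (-3.17), Cxcl10 (-3.14), Gata1 (-2.87), Apol9b (-2.78), Pex11a (-2.70), Hoxb5 (-2.04), Zbp1 (-2.01), Isg15 (-1.77), Esam (-1.49) and Pdzk1ip1 (-1.18). At 24 h it was positive for Hbb-bs (5.40), Hba-a1 (4.99), Hba-a2 (4.55), Cd74 (2.36), Hbb-bt (2.02), H2-Aa (1.67) and H2-Eb1 (1.63). It was negative for Prg3 (-5.78), Prg2 (-5.53), Cxcl10 (-3.71), Hist1h2bn (-2.35), Fgf3 (-1.86) and Isg15 (-1.57). With single mice left out, calls at 3 h were lost for Hbb-bs (without control mouse 1 or 3 h mouse 4, adjusted p of up to 0.265) and Cxcl10 (-0.44 without control mouse 4). At 24 h they were lost for Cxcl10 (without control mouse 4, adjusted p = 0.888), Hist1h2bn (without control mouse 1 or 3, 24 h mouse 1, 2 or 3 or 3 h mouse 4, adjusted p of up to 0.692) and Fgf3 (without control mouse 1 or 3 or 24 h mouse 1 or 4, up to 0.388). At 72 h it was positive for Hba-a1 (4.32) and Hbb-bs (3.99), and negative for Fcgr3 (-2.74), Elane (-2.21), Hist1h3c (-2.02), Wfdc17 (-1.86), Cenpf (-1.80), Isg15 (-1.75) and Mki67 (-1.10). Calls at 72 h were lost for Hist1h3c (without control mouse 1 or 3 or 72 h mouse 4, adjusted p of up to 0.231) and Wfdc17 (without control mouse 1 or 3 or 72 h mouse 1 or 3, up to 0.270), and other losses stand beside each gene in the text above.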

How the results depend on the processing

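Of 177 gene calls followed through the alternatives, drawn from the genes named above and other members of the lists, 77 held under every alternative that gave an adjusted p, 34 were lost with DESeq2, which gave no adjusted p for 48, 49 were lost with the stricter gate and 33 with the gate on thinned cells. With that gate the counts at 3, 24 and 72 h were 228, 26 and 23, those of the steps from 3 to 24 h and 24 to 72 h were 173 and 37, and those of the differences between gated and other cells at 3, 24 and 72 h were 12, 13 and 1. DESeq2 gave 21 at 24 h, 27 at 72 h, 33 from 24 to 72 h, and 31, 7 and 0 differences. The likelihood ratio test gave 129, 40 and 40 differences. Without a filter on low counts there were 82 calls at 24 h, 129 at 72 h, 110 from 24 to 72 h, and 39 and 51 differences at 24 and 72 h. The stricter gate gave 29 calls at 24 h, 49 at 72 h, and 41 and 36 differences at 24 and 72 h. The looser gate gave 141 calls at 72 h. Without the cells of most UMIs there were 40 at 72 h, and without the 61 granule-rich cells, an alternative chosen after seeing the data, 24 differences at 72 h.

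With 1 mouse left out the counts ran from 376 to 426 at 3 h, 41 to 59 at 24 h, 60 to 95 at 72 h, 275 to 335 from 3 to 24 h and 54 to 74 from 24 to 72 h. Differences ran from 35 to 81 at 3 h, 17 to 30 at 24 h and 2 to 26 at 72 h, the lowest without control mouse 1 at 3 h and without control mouse 3 at 72 h, and the highest at 72 h without control mouse 2. With the hashtag number as a replicate block the counts were 394, 45, 76, 316 and 69. The block lost 8 of the 177 calls.

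These values changed sign. The share of cells with a Ly6a UMI at 72 h differed from control by 7.81 points with the stricter gate and by -3.35 to 8.56 points with 1 mouse left out, and that of Mki67 at 24 h by -3.82 to 0.697 points. The difference at 3 h was -2.97 to 5.98 for Clec4a2 with 1 mouse left out, lowest without 3 h mouse 4, and with the gate on thinned cells 7.63 for Cxcl10 and 5.05 for Gata1. S100a8 in gated cells at 24 h was at 0.13 with the looser gate. Between gated and other cells at 24 h, Prg2 was at 1.16 with the gate on thinned cells, 1.42 without granule-rich cells and -6.29 to 0.18 with 1 mouse left out, highest without control mouse 3, Prg3 at 1.55 without granule-rich cells, and Cxcl10 at 6.32 with the gate on thinned cells. At 72 h Fcgr3 was at 4.97 with the gate on thinned cells and 1.05 without granule-rich cells, and Elane at 0.02 without granule-rich cells. The granule-rich cells were picked by Elane, Mpo, Ctsg, Prg2 or Pf4, which limits the levels of those genes in the remaining cells. The cause of these changes was not tested beyond the cells and mice each left out. Depth limits genes of few UMIs, above all in control mouse 4.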
